A study of Mus musculus with 6 samples.

Results

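Hox genes encode homeodomain transcription factors, and the members described here are all genes of the count table whose symbol is Hox followed by a cluster letter (a to d) and a paralog number. This rule found 39 of 24421 gene symbols, with 11 in HoxA, 10 in HoxB, 9 in HoxC and 9 in HoxD. It used no measured value.

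Hox genes of a cluster lie side by side on a chromosome and share a direction of transcription. Genes of low paralog number act in the anterior body and those of high number in the posterior body and limbs, and cells from different body regions keep different Hox combinations. In endothelium, Hoxa9, Hoxb5 and Hoxd3 are known for promoting vessel growth, whereas Hoxa5 and Hoxd10 are known for holding vessels in a resting state. Dot1l encodes the methyltransferase of histone H3 lysine 79, and in leukaemias with rearranged MLL it sustains the transcription of HoxA genes and of Meis1, the gene of a cofactor of Hox proteins.

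RNA-seq counts of 6 mouse libraries were analysed, with 1 library for each condition, so no condition could be tested against replicates. Skin blood endothelial cells (BECs) of E15.5 embryos were sorted, and RNA of several embryos was pooled in each library. Both skin groups carried floxed Dot1l alleles. Cont embryos lacked Tie2-Cre and are called wild type in the labels, and cKO embryos carried Tie2-Cre, a recombinase active in endothelial and blood cells. In culture, yolk sac BECs (CRL-2581) and dermal lymphatic endothelial cells (LECs, C57-6064L) received either an empty lentivirus (Cont BECs, Cont LECs) or a lentivirus for an inactive Cas9 fused to a transcriptional activator with guides to Dot1l (OE-BECs, OE-LECs). Each of these is 1 cell line, and flasks were pooled. Tissue, culture and line differ together between the skin and cultured libraries and cannot be told apart.

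The libraries held 8863349 to 31032461 reads. Dot1l took 762 reads in Cont and 944 reads in the cKO-labelled skin library; the log2 ratio was -0.07 (95% interval -0.21 to 0.07), and the gene-level counts thus do not show the deletion. Reads counted over the whole gene cannot show the loss of single exons. The paper reports that RT-qPCR, done without replicates, bore out the knockout in BECs. Dot1l was 2.78-fold higher in OE-BECs than in Cont BECs and 2.30-fold higher in OE-LECs than in Cont LECs. All 12 general endothelial markers were detected in each library. Prox1, the defining transcription factor of lymphatic endothelium, had 0 reads in all 4 cultured libraries, including both labelled LEC. It had 1304 and 883 reads in the skin Cont and cKO libraries labelled BEC. Of 8 listed lymphatic markers, Prox1 among them, 3 were detected in each LEC library, namely Lyve1, Flt4 and Sox18. The same 3 genes were also detected in both cultured BEC libraries. Lyve1 had 52184 and 60898 reads in the LEC pair (Cont, OE). The list summed to 2154 and 2108 reads per 1000000 reads there, and to 830 and 1177 in the cultured BEC pair. Most of each sum was Lyve1, at 1998 and 1962 in the LEC pair and 603.9 and 1061 in the BEC pair. Flt4 had 106.6 and 130.1 in the LEC pair and 144.3 and 98.25 in the BEC pair. Sox18 had 49.05 and 15.37 in the LEC pair and 81.2 and 17.73 in the BEC pair.

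In the GENCODE M21 annotation of GRCm38 (mm10), HoxA spans chr6:52155590-52260880, HoxB chr11:96194316-96368256, HoxC chr15:102921103-103036852 and HoxD chr2:74668310-74765142. The 250 bases before the start of 4 protein-coding members are shown from RefSeq (GRCm38.p6), with each CG dinucleotide in capitals. Hoxd8 and Hoxd4 are shown because their counts differed most among the abundant HoxD genes of the overexpression pairs, Hoxb8 because it set cultured apart from skin cells, and Hoxa5 because its ratio differed between OE-BECs and OE-LECs.
Hoxd8, chr2:74704365-74704614, plus strand: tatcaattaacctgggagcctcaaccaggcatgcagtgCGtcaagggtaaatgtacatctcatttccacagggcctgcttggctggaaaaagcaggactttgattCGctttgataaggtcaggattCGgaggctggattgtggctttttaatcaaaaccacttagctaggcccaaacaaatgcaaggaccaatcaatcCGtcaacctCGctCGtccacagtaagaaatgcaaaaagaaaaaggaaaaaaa
Hoxd4, chr2:74721728-74721977, plus strand: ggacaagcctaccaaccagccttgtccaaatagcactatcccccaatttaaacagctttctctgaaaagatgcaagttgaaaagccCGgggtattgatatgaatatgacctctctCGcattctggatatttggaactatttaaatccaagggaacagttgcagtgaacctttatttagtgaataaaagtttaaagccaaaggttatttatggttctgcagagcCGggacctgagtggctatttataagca
Hoxb8, chr11:96281655-96281904, plus strand: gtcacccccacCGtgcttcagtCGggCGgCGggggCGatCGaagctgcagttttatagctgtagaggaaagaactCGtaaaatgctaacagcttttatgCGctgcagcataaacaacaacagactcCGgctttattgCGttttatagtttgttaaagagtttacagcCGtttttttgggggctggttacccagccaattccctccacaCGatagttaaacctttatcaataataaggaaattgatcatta
Hoxa5, chr6:52204588-52204837, minus strand: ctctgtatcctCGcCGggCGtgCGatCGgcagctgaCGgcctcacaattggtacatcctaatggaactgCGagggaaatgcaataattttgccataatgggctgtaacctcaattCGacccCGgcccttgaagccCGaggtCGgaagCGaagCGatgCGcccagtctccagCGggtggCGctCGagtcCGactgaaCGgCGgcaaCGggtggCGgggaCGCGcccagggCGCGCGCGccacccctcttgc

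The Hoxa5 window held 28 CG dinucleotides, the Hoxb8 window 12, the Hoxd8 window 6 and the Hoxd4 window 3. Windows were found for 22 of the 39 genes, and these 24 windows had a median of 12.5 CG dinucleotides against 6 over all 32851 windows. CCAAT, searched on both strands, was in 58.3% of the Hox windows and 33.9% of all windows. The Hox and Pbx composite letters TGATNNAT were in 16.7% of the Hox windows and 7.68% of all, and TATAAA was in 16.7% and 12.4%. TTTATNG was in 8.33% of the Hox windows and 9.81% of all. The Hoxb8 window alone of those shown held TGATNNAT, beside 3 matches of TTTATNG and 2 of TATAAA.

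Reads on Hox genes amounted to 315 reads per 1000000 reads of the library (CPM) in skin Cont BECs and 271 in the cKO-labelled skin library. The control and OE libraries had 423 and 269 CPM in the cultured BEC pair and 400.5 and 243 CPM in the LEC pair. The changed library of each pair was thus the lower. A gene with more than 3 reads was taken as detected. Of the 39 genes, 30 were detected in each skin library, 21 in each cultured BEC library and 20 and 21 in the LEC pair. At least 1 read was found for 34 and 36 Hox genes in the skin pair, 21 and 25 in the BEC pair and 23 and 22 in the LEC pair. Over all 24421 genes, these numbers were 17760 and 18027, 15353 and 15808, and 15016 and 15529, so skin held more genes in general. The detected sets overlapped in 18 genes of all 6 libraries, and Hoxb13 had 0 reads throughout. Such an overlap was not counted over all genes.

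**Figure D1:**
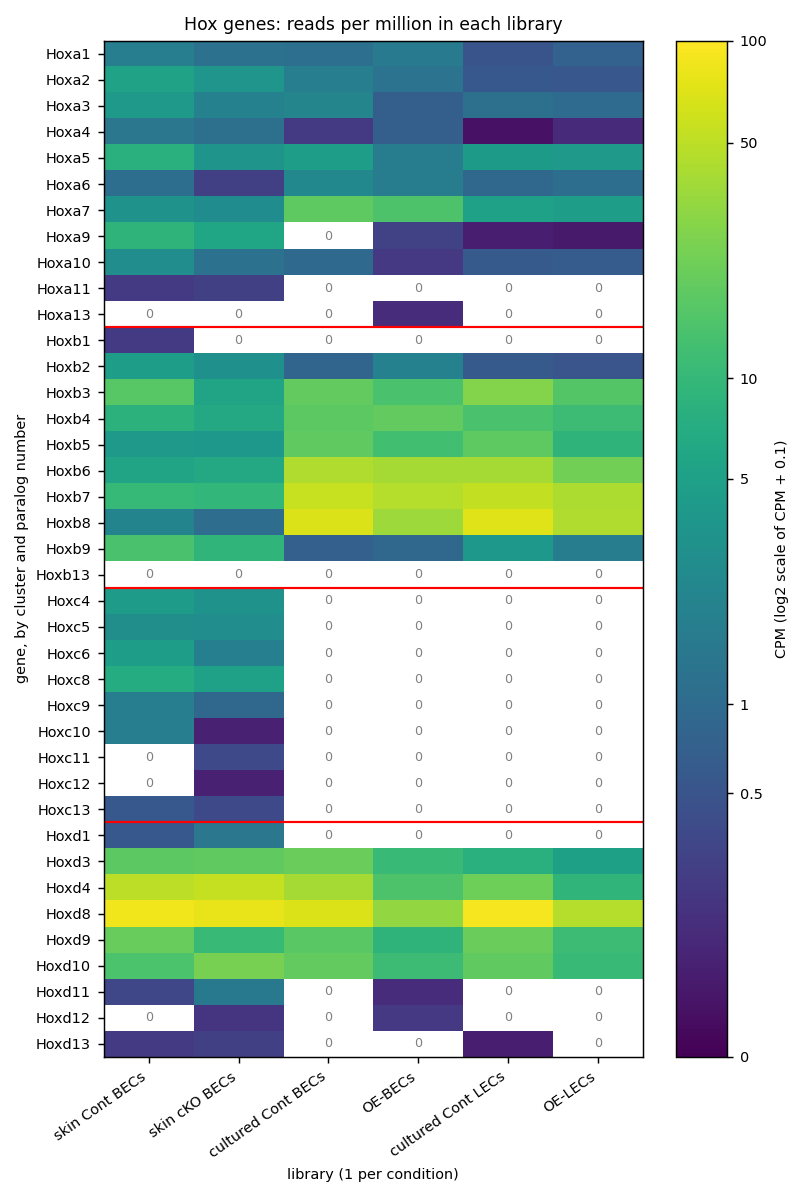
CPM of the 39 Hox genes (rows, by cluster and paralog number) in the 6 libraries (columns), on a log2 colour scale, with 0 printed where a library had no read. HoxC is filled in the skin libraries, except Hoxc11 and Hoxc12 in skin Cont BECs, and empty in the 4 cultured ones. Hoxb6, Hoxb7, Hoxb8, Hoxd4 and Hoxd8 hold the brightest cells.

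HoxC set the skin libraries apart. Its 9 genes had 207 reads in skin Cont BECs and 165 in the cKO-labelled library, and 0 of 88768888 reads in the 4 cultured libraries together, which allows up to 0.0338 CPM. Against skin Cont BECs, the summed HoxC reads of cultured Cont BECs were at least 93.98-fold lower. Hoxc8, a thoracic patterning gene, led HoxC with 7.11 CPM in skin Cont and 5.05 CPM in the cKO-labelled library. Detection in both skin libraries and in no cultured one was found for Hoxc4, Hoxc5, Hoxc6, Hoxc8, Hoxc9, Hoxc13 and Hoxd1. The share of all genes with this pattern was not counted. Hoxc13, required for hair growth, had 5 and 4 reads in the skin Cont and cKO libraries.

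The skin libraries also held reads of other skin cells. All 12 fibroblast markers were detected in skin, with a summed level of 2694 CPM in Cont and 1991 CPM in the cKO-labelled library, against 3.34 to 22.4 CPM in the cultured libraries. Keratinocyte markers summed to 228 and 393 CPM in skin and 4.6 to 8.9 CPM in culture. Macrophage markers summed to 3689 and 5862 CPM in skin, although the sort removed cells with the macrophage and leukocyte markers F4/80 and CD45 and then cells with Lyve1. Most of this sum was Mrc1, with 2538 and 3911 CPM. In culture the macrophage markers summed to 34.31 to 94.65 CPM. Lymphatic endothelial markers summed to 2821 and 3275 CPM in skin, of which Lyve1 had 1027 and 1801 CPM, and to 829.8 to 2154 CPM in culture. Pericyte and smooth muscle markers summed to 590.6 and 507.5 CPM in skin and 5.51 to 6.24 CPM in culture. The part of these cells in the HoxC reads was not tested. In bulk RNA, fewer cells of a type and less RNA per cell cannot be told apart.

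Levels of different genes were compared as reads per kilobase of exon per 1000000 reads (RPKM). In skin Cont BECs Hoxd8, linked to blood and lymphatic vessel integrity, came first with 31.4 RPKM (95% interval 29.2 to 33.7), and Hoxd4, a hindbrain and neck patterning gene, came second with 17.2 RPKM. Hoxd9 with 9.24 and Hoxd10 with 7.83 RPKM followed, and their intervals overlapped. The cKO-labelled library kept Hoxd8 (28.7 RPKM) and Hoxd4 (18.3 RPKM) at the top, with Hoxd10 (13.3 RPKM) next. HoxD genes thus filled the leading places in skin.

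HoxB genes shared the lead in culture. Cultured Cont BECs had 36.4 RPKM of Hoxb7 (34.2 to 38.8), 26.4 of Hoxb8, 25.3 of Hoxd8 and 22.5 of Hoxb6, and the intervals of Hoxb8 and Hoxd8 overlapped. In Cont LECs, Hoxb7 with 34.0 RPKM and Hoxd8 with 33.6 RPKM could not be ordered within counting error, and Hoxb8 with 27.0 and Hoxb6 with 20.1 RPKM came next. In OE-BECs the order was Hoxb7 (29.6 RPKM), Hoxb6 (19.8), Hoxb8 (13.9) and Hoxd8 (11.7), and the intervals of the last pair overlapped. In OE-LECs it was Hoxb7 (27.8 RPKM), Hoxd8 (16.9), Hoxb8 (16.7) and Hoxb6 (11.7), and the intervals of Hoxd8 and Hoxb8 overlapped. With the length of the longest transcript in place of the exon union, Hoxb7 stayed first in the 4 cultured libraries, at 33.3 to 43.6 RPKM.

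**Figure D2:**
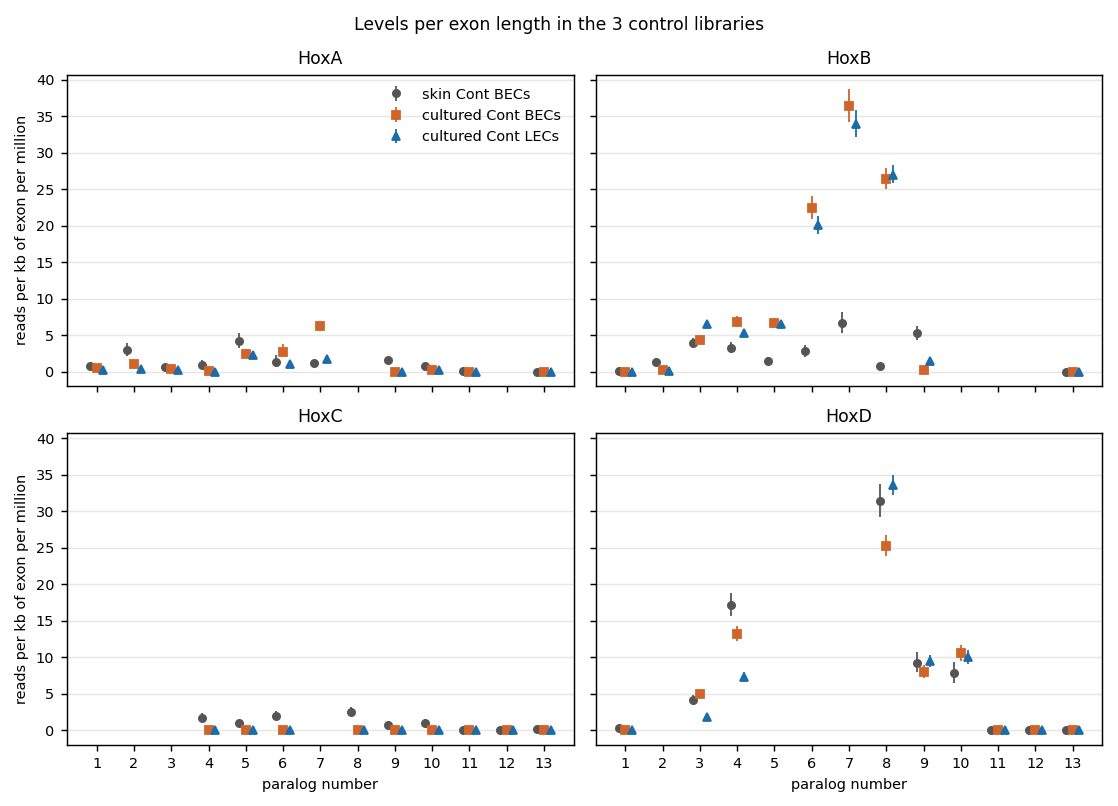
RPKM of each Hox gene against its paralog number in the 3 control libraries, in a panel for each cluster, with 95% counting intervals where reads were found. Skin Cont BECs lie far below the cultured controls at Hoxb6, Hoxb7 and Hoxb8, and all 3 libraries rise together at Hoxd8, to 31.4, 25.3 and 33.6 RPKM.

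A comparison of control libraries, which uses the same Cont libraries as the pairs described later, asks which Hox genes differ between fresh skin and cultured BECs. Summed HoxB was 4.07-fold higher in cultured Cont BECs than in skin Cont BECs (log2 ratio 2.02, interval 1.90 to 2.15). Summed HoxA and HoxD had log2 ratios of 0.01 and 0.05, with intervals that held 0. Calls needed a ratio of more than 3 between the normalized counts, the larger of which had to reach 5. Of 30 members that could be called, 5 were higher in culture, where 10.8% of all such genes were called. These were Hoxa7, Hoxb5, Hoxb6, Hoxb7 and Hoxb8. Another 12 were lower in culture, against 25.8% of all genes, and they comprised 7 HoxC genes, Hoxa4, Hoxa9, Hoxb2, Hoxb9 and Hoxd1.

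Hoxb8, which acts in myeloid progenitors, had 19 reads (2.14 CPM) in skin Cont BECs and 1232 reads (69.7 CPM) in cultured Cont BECs, a 38.4-fold difference (log2 5.26, 4.61 to 5.999). Hoxb9, its neighbour and a rib patterning gene, went the other way, with 13.7 CPM in skin Cont and 0.735 CPM in cultured Cont BECs (log2 -3.98, -4.93 to -3.15). Hoxa9 had 79 reads in skin Cont and 64 in the cKO-labelled library, and 0 and 4 in the cultured BEC pair (Cont, OE) and 2 and 2 in the LEC pair. Its fold against cultured Cont BECs was at least 35.4. Meis1 likewise had 150 and 270 reads in the skin Cont and cKO libraries and 0 and 3 in the BEC pair and 0 and 0 in the LEC pair.

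The cultured controls, yolk sac Cont BECs and dermal Cont LECs, were alike in which Hox genes they held. All 20 genes detected in Cont LECs were also detected in cultured Cont BECs, where Hoxa4 was detected as well with 4 reads against 1. The overlap over all genes was not counted, so the likeness may not be particular to Hox genes. Reads were found on 15353 genes in cultured Cont BECs and on 15016 in Cont LECs. By the same call rule, 1 of 21 members was higher in Cont LECs (3.5% of all genes), and this was Hoxb9, at 3.83 CPM against 0.735 CPM. Lower in Cont LECs were 3 of 21 members (12.1% of all genes), Hoxa2, Hoxa4 and Hoxa7. Summed HoxA was 2.55-fold lower in Cont LECs (log2 -1.35, -1.55 to -1.16), whereas HoxB and HoxD had log2 ratios of -0.10 and -0.15. Hoxd4 and Hoxd3 stood out within HoxD, with log2 ratios of -0.96 (-1.12 to -0.79) and -1.50 (-1.76 to -1.25).

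The pair of skin libraries addresses how Hox genes differ where Dot1l is floxed and Tie2-Cre is present. Genes of HoxA, HoxB and HoxC were mostly lower in the cKO-labelled library, and HoxD was not. Of 30 members with at least 10 reads in the pair, 24 had a log2 ratio below 0 and 6 above 0, with a median of -0.54 against 0.00 over 15554 genes. In HoxA 9 of 9 members were lower and in HoxC 6 of 6, with medians of -0.67 and -0.76. In HoxB 7 of 8 were lower, with a median of -0.53, and in HoxD 2 of 7 were lower, with a median of 0.05. By summed reads the log2 ratios were -0.81 (-1.05 to -0.56) for HoxA, -0.60 (-0.77 to -0.42) for HoxB, -0.71 (-1.01 to -0.40) for HoxC and -0.05 (-0.15 to 0.04) for HoxD.

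Intervals describe counting error between these libraries, not the spread of a condition, and PCR copies, which carry no molecular identifier here, can make the reads less independent than counted. The interval of the log2 ratio lay below 0 for 12 of 30 members and for 25.4% of all genes, and above 0 for 2 of 30 members and 23.1% of all genes. By the call rule of more than 3-fold, 3 of 31 members were lower (2.41% of all genes) and 1 of 31 was higher (5.17%). The lower members were Hoxa6, Hoxb3 and Hoxc10 and the higher one was Hoxd11. Hoxb3 was the only call with at least 20 normalized counts, and the other calls are named because they are few, after their values were seen.

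Hoxb3, which is known for capillary growth, had 16.7 CPM in skin Cont and 5.59 CPM in the cKO-labelled library, against 18.8 and 13.8 CPM in the cultured BEC pair (Cont, OE) and 27.8 and 15.6 CPM in the LEC pair. The cKO-labelled library was thus the lowest of the 6. It was 3.10-fold lower than skin Cont (log2 -1.63, -2.09 to -1.20) with the size factors of the pair, just past the threshold. Scaled by total counts, with or without Rn45s, it was 2.99-fold lower and was no longer called. The exons of Hoxb3 share 52.9% of their bases with the antisense gene Hoxb3os. How strand was used in counting could not be settled from the sources used here, so reads of either cannot be told apart.

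The other calls in skin rested on few reads. Hoxa6 had 10 reads in Cont and 3 in the cKO-labelled library, a log2 ratio of -2.12 (-4.61 to -0.16). Hoxc10 had 16 reads against 1 (log2 -4.38, -9.77 to -1.69). Hoxd11, a gene of forearm and kidney development, had 3 reads in Cont and 17 in the cKO-labelled library (log2 2.13, 0.33 to 4.54). Hoxd12 and Hoxd13 had at most 3 reads in each skin library, and Hoxa11os, antisense to Hoxa11, had 1 read against 17.

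Within HoxD, neighbouring genes differed in direction. Hoxd10 had 14.2 CPM in skin Cont and 24.2 CPM in the cKO-labelled library, the highest of the 6, as the BEC pair (Cont, OE) had 19.2 and 11.2 CPM and the LEC pair 18.2 and 10.5 CPM. Its log2 ratio in skin was 0.71 (0.40 to 1.03). Hoxd9 had 19.7 CPM in skin Cont and 10.7 CPM in the cKO-labelled library, and 17.2 and 8.83 CPM in the BEC pair and 20.4 and 11.3 CPM in the LEC pair. Its log2 ratio in skin was -0.95 (-1.30 to -0.60), an interval apart from that of Hoxd10.

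Hoxd3 and Hoxd4 were nearly level between the skin libraries, with log2 ratios of 0.05 (-0.26 to 0.36) and 0.04 (-0.14 to 0.22), and Hoxd8 had -0.19 (-0.33 to -0.05), an interval that held 0 when total counts set the scaling. Their skin levels were 17.4 and 18.7 CPM for Hoxd3, 50.5 and 53.9 CPM for Hoxd4 and 86.2 and 78.7 CPM for Hoxd8 in Cont and the cKO-labelled library. Hoxa5, by contrast, had 7.90 CPM in Cont and 3.52 CPM in the cKO-labelled library (log2 -1.22, -1.83 to -0.64). Hoxa9 had a log2 ratio of -0.68 (-1.18 to -0.19) and Hoxc6 one of -1.38 (-2.21 to -0.59). Hoxa7, Hoxb4, Hoxb5, Hoxb6, Hoxb7 and Hoxb8 had intervals that held 0, and Hoxb9 did not (log2 -0.62, -1.02 to -0.23).

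Markers of other cells differed between the same libraries. General endothelial markers were lower in the cKO-labelled library for 11 of 12 genes, with a median log2 ratio of -0.66 and summed levels of 6681 and 4270 CPM. Fibroblast markers had a median of -0.48, and 9 of 12 had intervals below 0. Macrophage markers were higher for 8 of 8 genes, with a median of 0.74. Keratinocyte markers were higher for 6 of 8 (median 0.59) and Schwann and neural crest markers for 7 of 7 (median 0.52). Lymphatic endothelial markers were lower for 5 of 7, with a median of -0.26, while Lyve1 (log2 0.75) and Pdpn (log2 1.07) were higher. Pericyte and smooth muscle markers were lower for 6 of 8 (median -0.31) and skeletal muscle markers for 3 of 4 (median -0.66). The part of these cell types in the Hox ratios was not tested.

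Overexpression asks the reverse question in cultured cells. In OE-BECs, HoxD was the cluster with the lowest ratio. Its 5 members with at least 10 reads were all lower than in Cont BECs, and their summed reads were 2.07-fold lower (log2 -1.05, -1.15 to -0.95). Summed HoxA had a log2 ratio of -0.42 (-0.62 to -0.22) and HoxB one of -0.38 (-0.46 to -0.31). Over all 21 members the median was -0.43, with 16 lower and 5 higher, against -0.01 over 13396 genes.

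The interval lay below 0 for 13 of 21 members in OE-BECs and for 30% of all genes, and above 0 for 1 of 21 (27.4% of all genes). That gene was Hoxb2, a hindbrain gene, at 15 and 28 reads in Cont BECs and OE-BECs (log2 1.28, 0.33 to 2.29). For this pair the call rule needed a higher normalized count of at least 3. It found 1 of 23 members lower (5.27% of all genes), Hoxa10 with 17 and 3 reads, and 3 of 23 higher (8.02%), all at 10 reads or fewer. These were Hoxa4 with 4 and 10 reads, Hoxa9 with 0 and 4, and Hoxd12 with 0 and 3. Hoxa3 stood just outside the rule at 2.99-fold lower, with 39 and 10 reads.

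In OE-LECs, HoxD and HoxB were lower and HoxA was not. Summed HoxD reads were 1.93-fold lower than in Cont LECs (log2 -0.95, -1.02 to -0.87), and those of HoxB had a log2 ratio of -0.60 (-0.65 to -0.54). HoxA had -0.02 (-0.23 to 0.19). Over 20 members the median was -0.45, with 17 lower and 3 higher, against 0.00 over 13028 genes. This median was -0.26 without Hoxd3 and Hoxd4, -0.27 over members with at least 1 read and -0.72 over those with at least 50 reads. The interval lay below 0 for 12 of 20 members (21.4% of all genes), made up of 7 of 8 HoxB, 5 of 5 HoxD and 0 of 7 HoxA genes. It lay above 0 for 0 of 20 (24.2% of all genes). The 3-fold rule found 0 of 21 lower (2.09% of all genes) and 1 of 21 higher (2.77%), Hoxa4 with 1 and 4 reads.

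**Figure D3:**
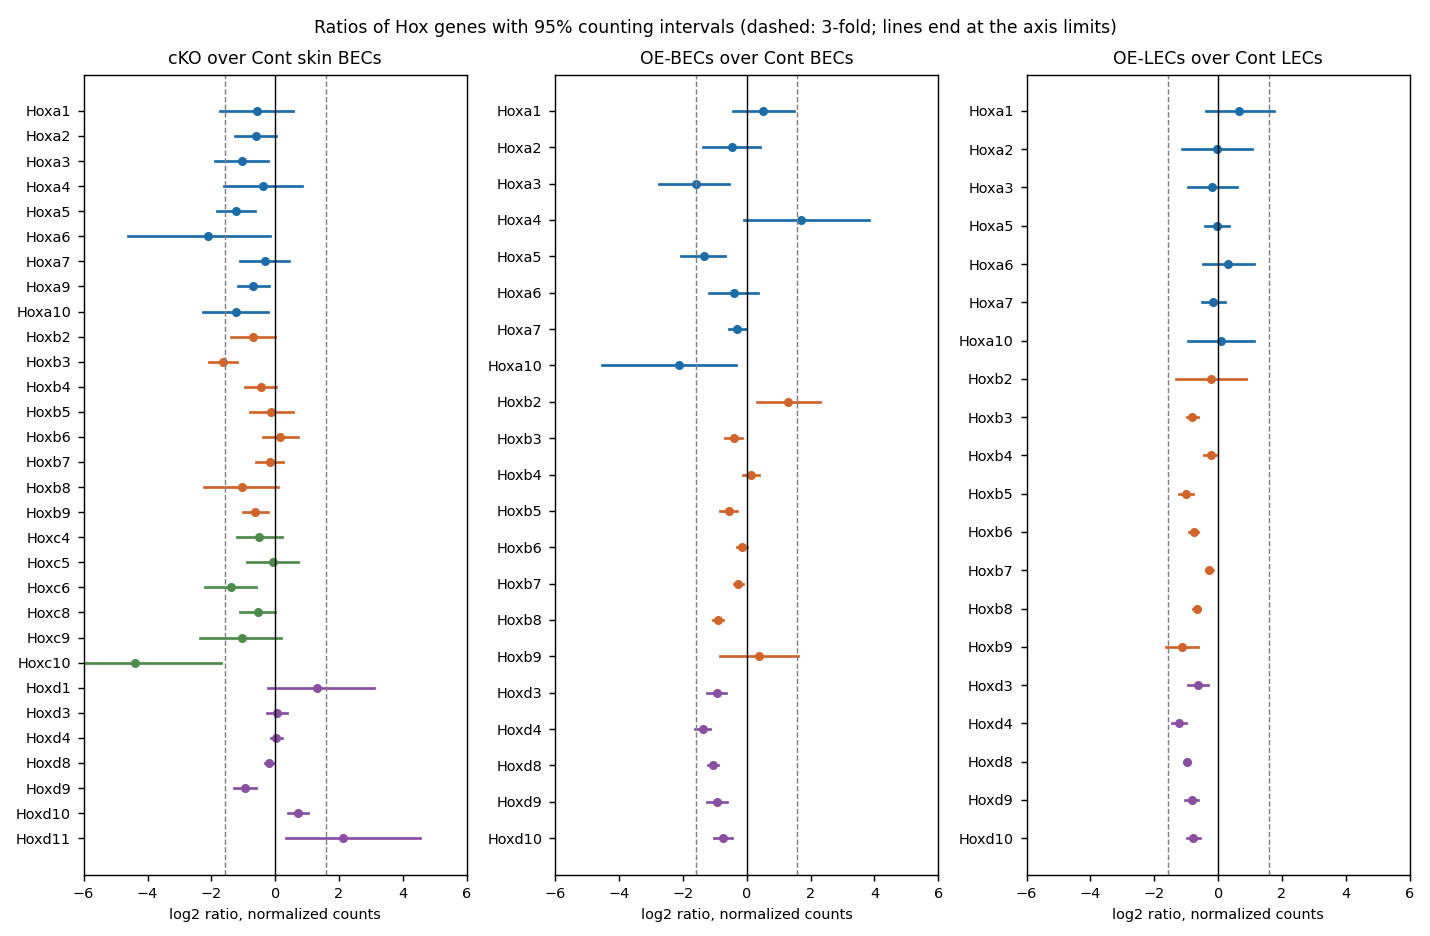
Log2 ratios of normalized counts for Hox genes with at least 10 reads in each pair, with 95% counting intervals and dashed lines at 3-fold; points are coloured by cluster. All 5 HoxD points lie left of 0 in OE-BECs (down to -1.38) and OE-LECs (down to -1.22), while in skin the HoxD points lie on both sides.

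Hoxd4 had the lowest HoxD ratio in both overexpression pairs. It stood at 39.0 CPM in cultured Cont BECs and 14.6 in OE-BECs (log2 -1.38, -1.61 to -1.15), and at 21.6 and 9.15 CPM in the LEC pair (log2 -1.22, -1.43 to -1.01). Hoxd8 stood at 69.4 and 32.2 CPM in the BEC pair (log2 -1.07, -1.23 to -0.91) and at 92.2 and 46.2 CPM in the LEC pair (log2 -0.98, -1.07 to -0.88). Both genes were thus lower in each OE library than in any control library.

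Hoxd3, an angiogenic Hox gene, stood at 20.7 and 10.5 CPM in the BEC pair (log2 -0.94, -1.23 to -0.66) and 7.85 and 5.03 CPM in the LEC pair (log2 -0.62, -0.93 to -0.32). Hoxd3 and Hoxd4 share 62.9% and 52.3% of their exon bases with other annotated genes, each other among them, so their separate values are uncertain. Hoxd9 had log2 ratios of -0.92 (-1.24 to -0.62) in OE-BECs and -0.83 (-1.03 to -0.64) in OE-LECs. Hoxd10 had -0.74 (-1.02 to -0.46) and -0.78 (-0.99 to -0.57). No HoxD member differed between the pairs beyond counting error, and the difference of the summed HoxD ratios was -0.11 (-0.23 to 0.02).

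HoxB ratios were less even. Hoxb8 stood at 69.7 CPM in cultured Cont BECs and 36.5 in OE-BECs (log2 -0.89, -1.04 to -0.74), and at 71.2 and 44.0 CPM in the LEC pair (log2 -0.68, -0.78 to -0.57). Hoxb6 stood at 44.1 and 38.8 CPM in the BEC pair (log2 -0.15, -0.31 to 0.02) and at 39.4 and 23.0 CPM in the LEC pair (log2 -0.76, -0.90 to -0.62). The control levels of both genes were thus close, and Hoxb6 differed in the LEC pair only. In skin, Hoxb6 had 5.53 and 6.40 CPM.

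Hoxb7, the leading gene per length, stood at 56.3 and 45.7 CPM in the BEC pair (log2 -0.26, -0.41 to -0.12) and at 52.5 and 42.9 CPM in the LEC pair (log2 -0.27, -0.38 to -0.16), against 10.3 and 9.47 CPM in skin. Hoxb5, known for inducing a receptor of VEGF, stood at 18.6 and 12.3 CPM in the BEC pair (log2 -0.56, -0.84 to -0.29) and at 18.1 and 8.89 CPM in the LEC pair (log2 -1.01, -1.23 to -0.79), against 4.06 and 3.88 CPM in skin. Hoxb4, known for expanding blood stem cells, stood at 17.5 and 18.8 CPM in the BEC pair (log2 0.14, -0.10 to 0.38) and at 13.6 and 11.4 CPM in the LEC pair (log2 -0.24, -0.46 to -0.02). Hoxb7 thus had nearly the same ratio in both pairs, and Hoxb5 and Hoxb4 had lower ratios in OE-LECs.

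Hoxb3 had log2 ratios of -0.41 (-0.67 to -0.15) in OE-BECs and -0.81 (-0.98 to -0.65) in OE-LECs. Hoxb9 had 13 and 13 reads in the BEC pair (log2 0.38, -0.84 to 1.61) and 100 and 54 reads in the LEC pair (log2 -1.12, -1.63 to -0.63). HoxB genes were thus at least as low in OE-LECs as in OE-BECs, except Hoxb8.

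HoxA differed between the pairs in the opposite direction. Hoxa5 stood at 4.69 CPM in cultured Cont BECs and 1.79 in OE-BECs (log2 -1.35, -2.06 to -0.69), and at 4.21 and 4.03 CPM in the LEC pair (log2 -0.05, -0.43 to 0.34). The controls were close, and OE-BECs were the lowest of the 6 libraries. Hoxa7 stood at 17.9 and 14.3 CPM in the BEC pair (log2 -0.29, -0.55 to -0.03) and at 5.09 and 4.54 CPM in the LEC pair (log2 -0.15, -0.50 to 0.21), against 3.38 and 2.80 CPM in skin. Hoxa3 had -1.58 (-2.75 to -0.55) in OE-BECs and -0.18 (-0.94 to 0.58) in OE-LECs.

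The difference of the log2 ratios, OE-BECs minus OE-LECs, was taken for each of 19 members. Its counting interval lay below 0 for Hoxa3, Hoxa5 and Hoxb8 and above 0 for Hoxb2, Hoxb3, Hoxb4, Hoxb5, Hoxb6 and Hoxb9. The share of all genes with such a difference was not counted, so these differences may not be particular to Hox genes. For Hoxa5 the difference was -1.30 (-2.04 to -0.56) and for Hoxb6 it was 0.62 (0.41 to 0.82). Intervals below 0 in both pairs were found for 9 of 20 members, against 11.6% of 12570 genes. These were Hoxb3, Hoxb5, Hoxb7, Hoxb8 and the 5 HoxD genes Hoxd3, Hoxd4, Hoxd8, Hoxd9 and Hoxd10.

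General endothelial markers were lower in 11 of 12 cases in OE-BECs (median log2 ratio -0.33) and in 10 of 12 in OE-LECs (median -0.24). The share of reads on the ribosomal RNA gene Rn45s was 5.91% in cultured Cont BECs and 10.9% in OE-BECs, and 0.0534% and 0.0632% in the LEC pair. With totals without Rn45s as the scaling, the interval of Hoxa7 in OE-BECs came to hold 0, and those of the other members named for both cultured pairs kept their side. The part of the endothelial markers in the Hox ratios was not tested.

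The make-up of the Hox reads does not depend on scaling between libraries. HoxD held 60.0% of them in skin Cont BECs and 69.8% in the cKO-labelled library, 39.1% in cultured Cont BECs and 28.8% in OE-BECs, and 40.0% and 33.8% in the LEC pair. HoxB held 20.9% and 16.6% in the skin pair, 53.5% and 62.7% in the BEC pair and 56.7% and 60.9% in the LEC pair. HoxA held 11.7% and 8.08%, 7.41% and 8.47%, and 3.30% and 5.30% in the same pairs. The HoxD share was therefore higher in the cKO-labelled library and lower in each OE library than in its control, by more than the counting intervals. In skin the HoxD level itself was nearly the same, at 189.2 and 189.5 CPM, and its share was higher because HoxA, HoxB and HoxC were lower. Paralogs 4 to 8 held 63.5% and 66.6% in the skin pair and 79.6% to 80.8% in the cultured libraries, so that their share varied little within pairs.

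**Figure D4:**
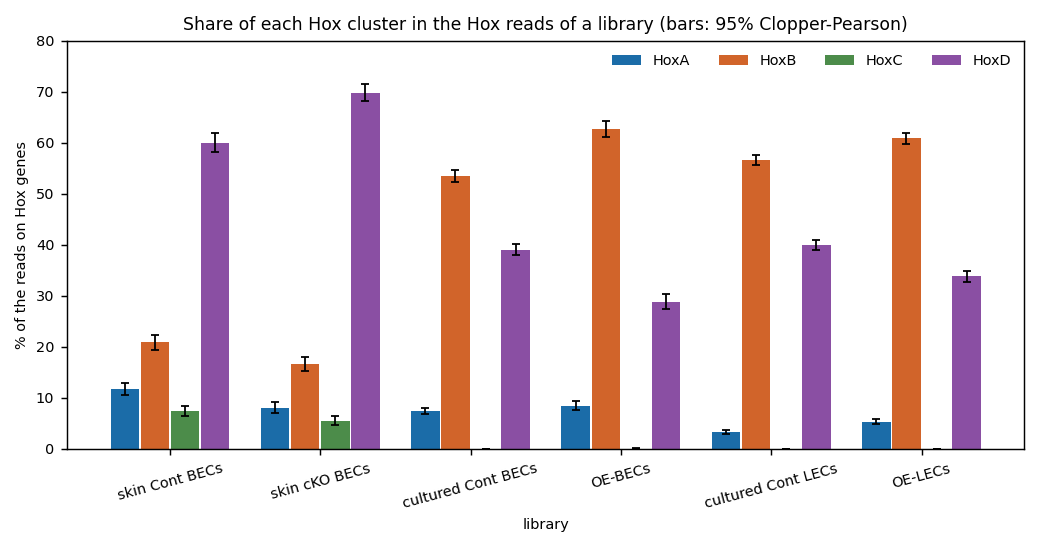
Share of the Hox reads of each library on HoxA, HoxB, HoxC and HoxD in percent, with exact (Clopper-Pearson) 95% intervals that cover counting error only. HoxD is the tallest bar in skin (60.0% and 69.8%) and HoxB in culture (53.5% to 62.7%), and HoxC is at 0 in culture.

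The remaining 25 members had at most 79 reads in any library. Those of HoxA had 0 to 79 reads in skin and 0 to 43 in culture, those of HoxB 0 to 42 and 0 to 28, and those of HoxD 0 to 17 and 0 to 3. The HoxC genes had 0 to 63 reads in skin. The exons of 16 of the 39 members overlap another annotated gene, an antisense gene for 10 of them.

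Genes that act with or on Hox genes were read beside them. Of the TALE cofactors, which bind DNA together with Hox proteins, 9 genes were listed. Meis1 had 0.47 (0.18 to 0.77) in skin, and Meis2 had -0.44 (-0.56 to -0.32) in OE-BECs and 0.30 (0.19 to 0.40) in OE-LECs. In skin the rule called 2 of 9 cofactors higher (5.17% of all genes), Pbx4 with 1 and 12 reads and Meis3 with 12 and 51. Calls in the BEC and LEC pairs rested on at most 11 reads a library.

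None of the 11 listed MLL and DOT1L linked regulators and none of the 15 Polycomb subunits was called in the skin, BEC or LEC pair, where the rule called 2.09% to 8.02% of all genes in a direction. Mllt3, whose product AF9 binds Dot1l, is named after its values were seen. It had 253 and 489 reads in skin Cont and the cKO-labelled library (log2 0.57, 0.35 to 0.80), 4100 and 1139 in the BEC pair (log2 -1.47, -1.56 to -1.37) and 6124 and 3177 in the LEC pair (log2 -1.18, -1.24 to -1.12). Of the 6 genes linked to DOT1L in leukaemia (Hoxa5, Hoxa6, Hoxa7, Hoxa9, Hoxa10 and Meis1), those with at least 10 reads had median log2 ratios of -0.91 over 6 in skin, -0.85 over 4 in OE-BECs and 0.02 over 4 in OE-LECs.

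Cdx1, Cdx2 and Cdx4, which activate Hox genes in the posterior embryo, had 0 to 3 reads in each library. Of 7 listed endothelial genes linked to Hox proteins, none passed the 3-fold rule in the skin, BEC or LEC pair, at the shares of all genes just given. Their median log2 ratios were -0.91 in skin, -0.30 in OE-BECs and 0.08 in OE-LECs. In skin the interval lay below 0 for 4 of the 7 and above 0 for 2, with -0.998 (-1.03 to -0.96) for Kdr, a VEGF receptor, and 1.28 (1.16 to 1.40) for Angpt2, a ligand of the Tie2 receptor.

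Noncoding transcripts of the clusters were sparse. Hoxb5os had 10 and 20 reads in the skin pair, 115 and 63 in the BEC pair and 158 and 105 in the LEC pair. Hoxd3os1, which shares exon bases with Hoxd3 and Hoxd4, had 72 and 72, 118 and 41, and 38 and 34 reads. Hotairm1, at the anterior end of HoxA, had 10 and 8, 18 and 15, and 33 and 50 reads. Like the HoxC genes, Halr1 was read in skin, with 11 and 14 reads, and had 0 reads in culture.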

How the data were processed

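The authors made libraries with ScriptSeq v2, trimmed reads with skewer, aligned them to mm10 with STAR and counted reads per gene with VERSE, and deposited raw counts of 24421 gene symbols; the gene annotation is not given in the sources used here. There was 1 library per condition, so no condition was tested and no replicate was left out. Counts were scaled by the median of ratios of each pair (DESeq2 1.42.0, R 4.3.3), and calls followed the criterion in the paper's methods (a ratio of more than 3, with a larger normalized count of 5 or more for cKO and 3 or more for OE). Log2 ratios carry exact conditional 95% intervals (scipy 1.17.1), medians use a pseudocount of 1 over genes whose pair held 10 reads or more, and folds against 3 reads or fewer use a floor of 3 reads. The difference of log2 ratios between the OE pairs has a normal interval from the counts. The call rule and the exact intervals were tested on simulated Poisson counts scaled by totals, and the other steps were not. Values are given for members with at least 100 reads in a library or a call with at least 20 normalized counts, and most of the rest by ranges. Hoxa3, Hoxa10 and some others with few reads are also given with values, outside this rule. Members and lists were chosen with earlier results of these data known, and the comparisons between control libraries were added after seeing the data. Settings tried were other size factors (all 6 libraries, TMM of edgeR 4.0.16, total counts with and without Rn45s), minima, folds, pseudocounts and lengths.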

Additional observations from a re-analysis of the deposited data

Results flagged for a closer look

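The summed HoxA and HoxB reads responded differently in the overexpression pairs by their counting intervals. The log2 ratio of OE-BECs over Cont BECs minus that of OE-LECs over Cont LECs was -0.40 (-0.69 to -0.12) for HoxA, with ratios of -0.42 and -0.02. For HoxB it was 0.21 (0.12 to 0.31), with ratios of -0.38 and -0.60. These intervals cover counting error only, and with 1 library per condition the difference was not tested against replicates.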

How the results depend on the processing

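The medians of the Hox ratios in the skin, BEC and LEC pairs moved by less than their spread under each setting tried, and no result changed sign. Numbers of detected genes depended on the threshold and have no spread within 1 library. With at least 1 CPM, for instance, 20 became 15 in Cont LECs and 21 became 17 in cultured Cont BECs. With at least 1 read, 30 became 36 in the cKO-labelled skin library. The LEC pair's median of -0.45 ranged from -0.72 (at least 50 reads) to -0.26 (without Hoxd3 and Hoxd4, a setting added after seeing the data). The counts of called genes were small and depended on the thresholds. In the skin pair the 1 higher call became 2 with size factors from all 6 libraries, 0 with a minimum of 20, 4 with no minimum and 2 with a fold of 2, and the 3 lower calls became 2 with total counts with or without Rn45s (Hoxb3 lost), 4 with no minimum, 1 with a minimum of 20 and 9 with a fold of 2. In the BEC pair the 3 higher calls became 0 with a minimum of 20, 5 with no minimum and 0 when the interval also had to exclude 0, and the 1 lower call became 2 with TMM or total counts, 0 with a minimum of 20 and 5 with a fold of 2. In the LEC pair the 1 higher call became 0 with size factors from all 6 libraries, with a minimum of 20 or with the interval, and the 0 lower calls became 1 with no minimum and 3 with a fold of 2. Cluster levels moved beyond counting error without Rn45s in the total, to 25.6 CPM (HoxA, OE-BECs), 240.7 and 189.5 CPM (HoxB, Cont BECs and OE-BECs) and 175.8 and 87.1 CPM (HoxD, the same), and with size factors of all 6 libraries, to 237.6, 184.8 and 218.7 (HoxB, BEC pair and Cont LECs) and 175.4, 173.5, 85.0 and 154.4 (HoxD, cKO, BEC pair and Cont LECs). With the longest transcript, Hoxb7 had 43.6, 35.4, 40.7 and 33.3 RPKM in the BEC pair and the LEC pair, in that order. No library could be left out, as each condition has 1, and no paired analysis was possible for the same reason.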
